A study of Mus musculus with 9 samples.

Results

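The 7 genes described here are known from anergic T cells, which are cells that have met antigen and then respond poorly to it. They are Nrn1, Izumo1r, Nt5e, Ikzf2, Rnf128, Itch and Ndrg1, 7 of the 30702 genes measured. They were chosen by name with measured values in view, since Nrn1 and Izumo1r were already known to be lower in the combination than with anti-CD27 alone. The question was whether such markers are higher with the CD27 agonist alone. Each gene was read from the probe set with the highest mean over the 9 arrays, and each had 1 probe set that named it alone (Izumo1r under its older symbol, Folr4). Transcripts were measured in CD8+ T cells of pmel1 mice, which carry a transgenic receptor for a peptide of the melanocyte protein gp100. All 9 recipient mice were given the same number of Thy1.1+ pmel1 cells and 100 µg of the human gp100 peptide intravenously, and each received 400 µg of antibody. The 3 mice of the anti-PD-1/L1 group received 100 µg of anti-PD-1 (RMP1-14), 100 µg of anti-PD-L1 (10F.9G2) and 200 µg of isotype control. The 3 mice of the anti-CD27 group received 200 µg of the agonist AT124 and 200 µg of isotype control, and the 3 mice of the combination group received all of these antibodies at the same doses with no isotype control. On day 4 the Thy1.1+ CD8+ cells of each spleen were sorted to a purity above 99%, and the RNA of each mouse was put on 1 array. A group given peptide with isotype control alone was not analysed here, so every difference is between treatments.

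Anergy is best described in CD4+ T cells that receive a signal through the antigen receptor without enough costimulation. CD27 is a costimulatory receptor, while PD-1 and its ligand PD-L1 form an inhibitory pathway that restrains the antigen receptor. Nrn1 encodes neuritin, Izumo1r encodes folate receptor 4, and Nt5e encodes CD73, an enzyme that makes adenosine outside the cell. All of these are held at the cell surface by a lipid (GPI) anchor, and high folate receptor 4 together with high CD73 is the usual surface phenotype of anergic CD4+ cells. Rnf128 (GRAIL) and Itch are ubiquitin ligases that mark signalling proteins for removal. Ikzf2 encodes Helios, a transcription factor of the Ikaros family, and Ndrg1 encodes a cytoplasmic protein linked to the upkeep of anergy.

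Promoter sequences from RefSeq (GRCm38.p6) were found for 3 of the 7 genes, Izumo1r, Nt5e and Rnf128. Those of Izumo1r and Nt5e are printed because these are the partner surface markers of anergic cells, and their levels took different courses across the groups below. Each is the 250 bases before the start of the gene, 5′ to 3′ on the gene's strand, with CG pairs in capitals. The Izumo1r stretch is chr9:14903768-14904017 on the minus strand, and the Nt5e stretch is chr9:88327359-88327608 on the plus strand.
Izumo1r: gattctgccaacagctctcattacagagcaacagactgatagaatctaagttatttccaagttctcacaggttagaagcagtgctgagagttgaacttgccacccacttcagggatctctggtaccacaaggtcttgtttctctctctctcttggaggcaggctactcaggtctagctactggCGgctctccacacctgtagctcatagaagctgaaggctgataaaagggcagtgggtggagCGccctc
Nt5e: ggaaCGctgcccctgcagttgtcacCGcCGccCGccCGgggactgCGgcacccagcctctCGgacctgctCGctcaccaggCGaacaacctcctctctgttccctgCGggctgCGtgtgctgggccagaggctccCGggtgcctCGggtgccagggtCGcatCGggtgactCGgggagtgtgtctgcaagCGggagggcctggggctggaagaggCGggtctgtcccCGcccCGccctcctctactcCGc
The Izumo1r stretch held 2 CG pairs and the Nt5e stretch 21, against a median of 6 over all 32851 promoters of the table. The GC content was 50.0% for Izumo1r and 72.0% for Nt5e. Each 300-base window also takes in 50 bases after the start. Neither held the letters of a longer form of the NFAT core (GGAAAA), AP-1 (TGANTCA), EGR (GCGTGGGCG) or CRE (TGACGTCA) on either strand. Among all promoters 23.4%, 7.81%, 0.612% and 1.79% held these motifs. The Rnf128 window held the longer NFAT form once. The shorter GGAAA was not searched, and the printed Izumo1r stretch holds it on the other strand (tttcc).

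The 3 anti-PD-1/L1 arrays stood apart from the other 6 in their background and positive control probe sets. Their background control probe sets averaged 4.06 ± 0.08 on the log2 scale (SD, n = 3), compared with 3.25 ± 0.04 in the combination group and 3.27 ± 0.06 in the anti-CD27 group. Positive control probe sets were lower there, at 5.75 ± 0.19 compared with 6.81 ± 0.04 and 6.70 ± 0.02. A two-sided exact permutation test of each gap gave p = 0.1, which is the lower limit for groups of 3. The median difference of all genes was -0.26 in each comparison with anti-PD-1/L1 and 0.00 between the combination and anti-CD27. The labelled cell type was borne out by its markers, as Cd8a and the other 9 CD8 T cell genes measured were over 1 log2 unit above the background controls in every group. Their summed linear level was lowest in anti-PD-1/L1, at 4041 to 5773, against 10270 to 11240 in the combination and 11530 to 11790 in anti-CD27. Of these 10 genes, 7 were called higher and 1 lower in each comparison with anti-PD-1/L1, where 19% and 17.1% of all genes were called higher. The cause was not tested. Cd4 had group means of 2.98 to 3.18, below the background controls of its group each time.

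Nrn1 was the gene of the set with the clearest separation of anti-CD27 from both other groups. Neuritin is a secreted or membrane-held protein first known from neurons and is high in anergic and regulatory T cells. The log2 level of Nrn1 was 8.52, 8.49 and 8.37 on the anti-CD27 arrays, 6.85, 6.95 and 6.67 on the combination arrays, and 7.49, 7.06 and 6.94 on the anti-PD-1/L1 arrays. All 3 anti-CD27 values lay above all 6 others, while the ranges of the other groups overlapped. The combination mean was 3.11-fold below that of anti-CD27, a log2 difference of -1.64 ± 0.14 (SE). That difference was known when the genes were chosen and is given without a test, as is that of Izumo1r. In anti-CD27 the level of Nrn1 was 1.30 ± 0.14 above anti-PD-1/L1 (2.45-fold, limma adjusted p = 6.02e-05), a comparison that shares the anti-CD27 arrays with the one just given. With the positive controls of each array as a covariate this difference was -0.23 (adjusted p = 0.654). Positive controls themselves set anti-PD-1/L1 apart, so this covariate cannot be told apart from treatment in comparisons with that group. They differed between the combination and anti-CD27 as well, by less, so the covariate is not a clean check of that comparison either. In these sorted cells, fewer cells with the transcript and less transcript per cell cannot be told apart.

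Between the combination and anti-PD-1/L1, Nrn1 differed by -0.34 ± 0.14 (limma adjusted p = 0.0497). The median of all genes in that comparison was -0.26. The value depended on the scaling, at 0.04 with arrays centred on their medians (adjusted p = 0.84), -0.82 after quantile normalization (adjusted p = 8.02e-05, with a median of all genes of -0.03) and -2.03 once positive controls entered as a covariate (0.0186). The call was lost under 12 of 18 alternative settings, among them the removal of each array in turn except the anti-PD-1/L1 array numbered 3 (adjusted p 0.0521 to 0.156).

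Izumo1r separated the combination from both single treatments. Folate receptor 4 belongs to the folate receptor family by sequence, and on eggs the same protein, Juno, binds the sperm protein Izumo1. Its log2 level was 4.93, 4.87 and 4.91 on the combination arrays, 6.29, 5.98 and 5.98 on the anti-CD27 arrays, and 6.92, 6.53 and 6.35 on the anti-PD-1/L1 arrays. The 3 combination values were the lowest of the 9 and nearly equal, and the single treatments did not overlap, with anti-PD-1/L1 the higher. The combination mean of 4.91 was 2.26-fold below the anti-CD27 mean of 6.08, a log2 difference of -1.18 ± 0.14, given without a test. Against anti-PD-1/L1, with a mean of 6.60, Izumo1r fell 3.24-fold in the combination, by 1.70 ± 0.14 on the log2 scale (limma adjusted p = 1.64e-05). That direction and call held under all 18 alternatives, with differences from -3.35 to -1.32. This comparison shares the combination arrays with the difference known beforehand, so its p is not independent of how Izumo1r was chosen. Anti-CD27 was lower than anti-PD-1/L1 by -0.52 ± 0.14 (adjusted p = 0.0104), a gap that was -0.15 with arrays centred on their medians (adjusted p = 0.426), -0.90 after quantile normalization (0.000113) and -2.01 once positive controls entered as a covariate (0.0232). The size of the gap between the single treatments depended on the scaling, and the combination lay below both under each scaling tried.

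**Figure D1:**
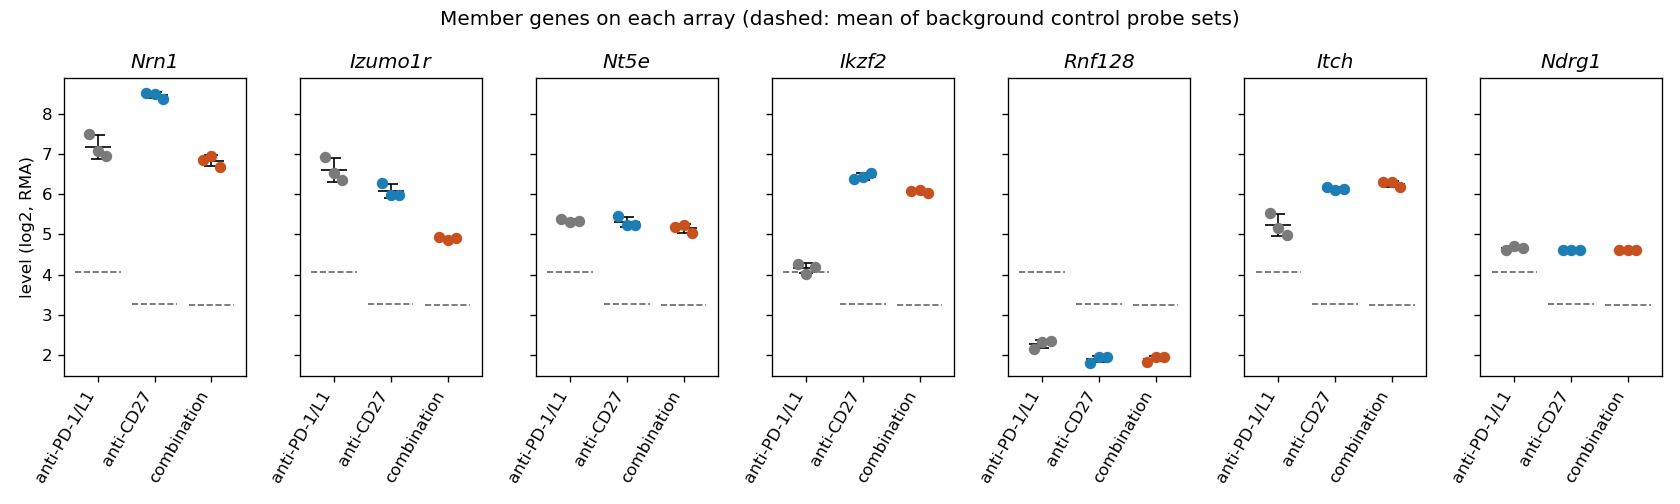
Log2 level of each of the 7 genes on each array (points, 3 per group), with the group mean and SD in black and the mean of the background control probe sets of the group as a dashed line. Nrn1 is highest in anti-CD27, Izumo1r is lowest in the combination, Ikzf2 is near the background line in anti-PD-1/L1 only, and Rnf128 is below that line in every group.

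Nt5e, the third gene for an anchored surface protein, differed little. The ectoenzyme CD73 turns AMP into adenosine, which dampens T cells through adenosine receptors. Levels were 5.18, 5.24 and 5.03 in the combination, 5.45, 5.24 and 5.24 in anti-CD27, and 5.37, 5.32 and 5.35 in anti-PD-1/L1. The 9 values lay close together between 5.03 and 5.45, and the combination and anti-CD27 overlapped. The combination minus anti-CD27 was -0.16 ± 0.08 (95% interval -0.34 to 0.02, limma adjusted p = 0.608). Against anti-PD-1/L1 the combination was lower by -0.20 ± 0.08 (adjusted p = 0.047), near the median of all genes. That value was 0.18 with centred arrays (adjusted p = 0.112), -0.34 after quantile normalization (0.00477, with a median of all genes of -0.03) and -0.48 once positive controls entered as a covariate (0.464). This call was lost under 10 of 18 alternatives, including the removal of any single array other than anti-CD27 replicate 1 and combination replicate 2 (adjusted p 0.058 to 0.157). Anti-CD27 and anti-PD-1/L1 differed by -0.04 ± 0.08 (adjusted p = 0.687), with 0.33 for centred arrays (adjusted p = 0.0117), -0.16 after quantile normalization (0.111) and -0.29 with the covariate (0.627).

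Ikzf2 was high in both groups that received AT124. Helios is found in regulatory T cells and in T cells under strong or repeated receptor stimulation. Its level was 6.38, 6.42 and 6.53 in anti-CD27, 6.07, 6.10 and 6.03 in the combination, and 4.26, 4.02 and 4.19 in anti-PD-1/L1. None of the 3 ranges overlapped, and the largest gap set anti-PD-1/L1 apart from the rest. The anti-PD-1/L1 mean of 4.16 was 0.09 above the background controls of that group. It was above 82.77% of the negative controls, so how far background limits differences from it is uncertain. Ikzf2 was 4.87-fold higher in anti-CD27 (2.29 ± 0.07, limma adjusted p = 7.49e-08) and 3.76-fold higher in the combination (1.91 ± 0.07, adjusted p = 1.48e-07). Both calls held under all 18 alternatives, with values down to 1.97 and 1.56 when the positive controls were a covariate. Positive control probe sets were themselves lower on the anti-PD-1/L1 arrays, as were many T cell genes such as Cd3e, at 8.89 ± 0.41 against 11.06 ± 0.03 in anti-CD27. Their part in the lower Ikzf2 was not tested, because that covariate cannot be told apart from treatment here.

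Ikzf2 also fell in the combination relative to anti-CD27, by 0.37 ± 0.07 on the log2 scale or 1.29-fold (limma adjusted p = 0.0413). It was the 1 gene that passed of the 5 tested in this comparison, where 1.8% of all genes passed (1.28% higher and 0.528% lower). The call did not survive the loss of any 1 of the 6 arrays compared (adjusted p 0.119 to 0.15), centring of the arrays (0.0657) or the replicate number as a block (0.102), while the difference stayed between -0.41 and -0.33. With these 6 arrays alone it was called (adjusted p = 0.0153).

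The ubiquitin ligases did not separate the combination from anti-CD27. Itch, a HECT ligase whose loss causes autoimmunity in mice, was at 6.31, 6.30 and 6.17 in the combination and 6.18, 6.12 and 6.13 in anti-CD27, ranges that overlapped. It differed between them by 0.12 ± 0.12 (95% interval -0.16 to 0.39, limma adjusted p = 1). On the anti-PD-1/L1 arrays Itch was at 5.53 and 5.17 for replicates 1 and 2 and lower again for replicate 3 (mean 5.23 ± 0.27), below all 6 other values. The combination was 1.03 ± 0.12 higher than anti-PD-1/L1 (adjusted p = 8.65e-05) and anti-CD27 0.91 ± 0.12 higher (adjusted p = 0.000187). With the positive controls as a covariate these values were -0.53 and -0.49 (adjusted p = 0.127 and 0.116). The direction turned with that setting, but the covariate sets anti-PD-1/L1 apart by itself and cannot decide the direction of the Itch difference.

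Rnf128 was not above background on any array. This RING ligase was at 1.85, 1.95 and 1.95 in the combination, 1.82, 1.95 and 1.95 in anti-CD27, and 2.15, 2.33 and 2.35 in anti-PD-1/L1. The group means lay 1.33, 1.36 and 1.79 log2 units below the background controls of the same groups. The higher anti-PD-1/L1 values passed the test (limma adjusted p = 0.00182 against the combination and 0.00166 against anti-CD27), but background controls were higher on those arrays too, and no fold is given.

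Ndrg1 had almost a single value throughout. Of the 9 arrays, 6 carried the same deposited value, 4.62, and replicates 2 and 3 of anti-PD-1/L1 were at 4.72 and 4.67. Only 3.69% of genes repeated 1 value on so many arrays. The combination minus anti-CD27 was 0.00 ± 0.05 (95% interval -0.10 to 0.11, limma adjusted p = 1), and both groups differed from anti-PD-1/L1 by -0.05 ± 0.05 (adjusted p = 0.356 and 0.347). The differences of the combination and anti-CD27 from anti-PD-1/L1 turned sign with the scaling. They were 0.33 and 0.32 with centred arrays (limma adjusted p = 0.000431 and 0.000642). After quantile normalization they were 0.13 and 0.14 (adjusted p = 0.0524 and 0.045). A gene with so few distinct values gives little information on small differences.

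**Figure D2:**
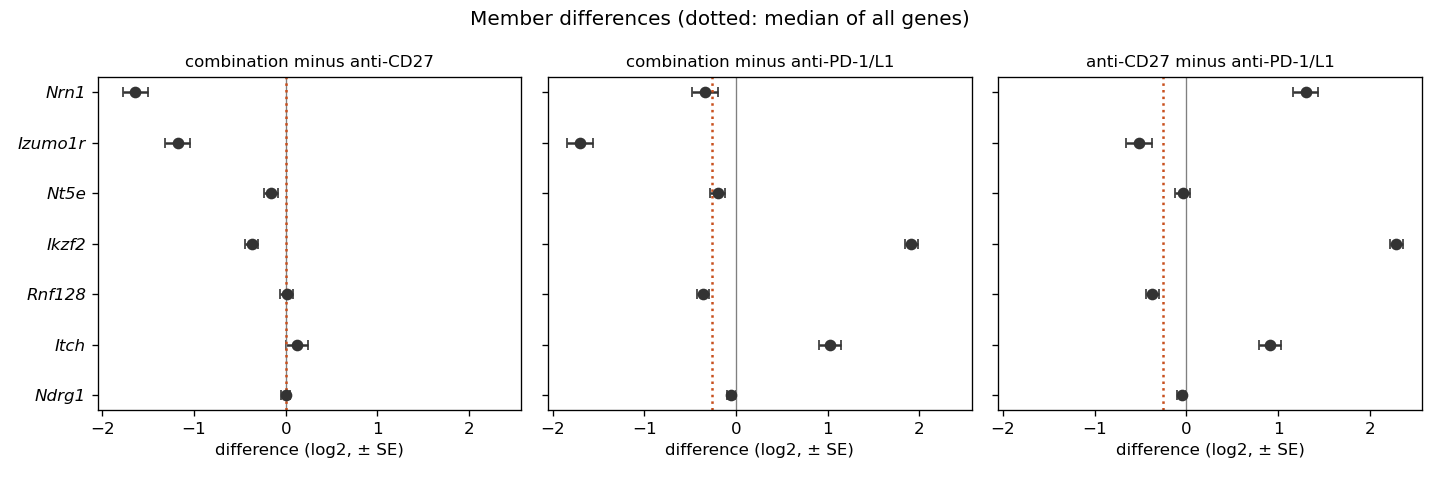
Log2 difference of each of the 7 genes with its SE in the 3 comparisons, with the median of all genes as a dotted line. Between the combination and anti-CD27, Nrn1 (-1.64), Izumo1r (-1.18) and Ikzf2 (-0.37) lie to the left and the other genes near 0, while Ikzf2 and Itch lie to the right in both panels against anti-PD-1/L1, where Itch turns to -0.53 and -0.49 with the positive control covariate.

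Read as a set, the markers did not move as one. In the combination, 3 of 7 had all arrays below all anti-CD27 arrays (Nrn1, Izumo1r and Ikzf2) and none had all above, where 8.46% of all genes were wholly lower and 12.1% wholly higher. Nrn1 and Izumo1r were chosen with this difference known, so the count is a description. The median difference of the 7 was -0.16, against 0.00 for all genes. Against anti-PD-1/L1, 2 of 7 rose in the combination, 4 fell and 1 did not pass, where 72.3% of all genes passed (19% higher and 53.3% lower). By overlap, 2 lay wholly above and 3 wholly below, where 18.9% and 54.6% of all genes did. Anti-CD27 against anti-PD-1/L1 gave 3 higher, 2 lower and 2 that did not pass, where 70.8% of all genes passed (17.1% higher and 53.7% lower), and the same numbers by overlap, where 17.5% and 55.1% of all genes did. Shares near such a background say nothing particular of these genes. The split of calls over all genes also moved with the scaling: 26.3% of the calls in the combination were rises as deposited, 46.3% after quantile normalization and 69.7% with centred arrays, and for anti-CD27 the shares were 24.2%, 46.4% and 69.3%. With centred arrays the calls among the 7 genes were 3 higher and 1 lower for the combination and 5 higher and none lower for anti-CD27.

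Few of the other genes of these pathways passed between the combination and anti-CD27. Of 122 measured genes on 10 lists, 1 rose, 5 fell and 116 did not pass (4.92% passed, against 1.8% of all genes, 1.28% higher and 0.528% lower), with a median difference of -0.01. Without the lowest 50% of genes, 5.17% of those left passed. The lists were also chosen with earlier results of these data known, so their share says nothing particular of these pathways. After quantile normalization 1 was higher and 9 lower, and with the positive control covariate 2 and 10. None of 18 ubiquitin ligases and partners passed, and the largest difference was -0.33 ± 0.14 in Peli1 (limma adjusted p = 0.463). Cblb, a ligase needed for anergy and named here after its values were seen, differed by -0.01 ± 0.07 (adjusted p = 1). None of 18 diacylglycerol kinases and proximal brakes passed, with Dgka, which removes a second messenger of the receptor, at -0.31 ± 0.14 (adjusted p = 0.534). Of 19 transcription factors and regulators of anergy, Tox, a factor of chronically stimulated T cells, fell by 0.47 ± 0.09 (adjusted p = 0.0337), while the remaining 18 missed the threshold. The Tox call was lost when any single one of these 6 arrays was removed, with the positive control covariate and with the replicate block, where its adjusted p reached 0.162 at most. Egr2, which drives several anergy genes and was also named after its values were seen, differed by -0.18 ± 0.06 (adjusted p = 0.279).

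Around the individual genes the picture was as sparse. Of 11 genes of adenosine handling, the nucleoside transporter Slc28a2 fell by 0.42 ± 0.07 (limma adjusted p = 0.0199), a call lost on removal of any single one of the 6 arrays or with the replicate block (adjusted p up to 0.0966). Entpd1, which acts upstream of CD73 and was named after its values were seen, was near background in the combination and anti-CD27, at 3.32 and 3.27. None of 4 other Ikaros factors passed, with Ikzf1 at 0.17 ± 0.05 (adjusted p = 0.249). None of 5 folate genes passed, with the hydrolase Ggh at 0.58 ± 0.13 (adjusted p = 0.0708). No gene passed among 10 further RING ligases of the Rnf128 type (Znrf4 -0.28 ± 0.19, adjusted p = 0.884), 3 NDRG family genes (Ndrg3 -0.13 ± 0.08, adjusted p = 0.807) or 18 hypoxia-inducible genes (Ero1a 0.55 ± 0.16, adjusted p = 0.183).

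Surface molecules of anergic or regulatory T cells were the list with most calls, with 1 higher, 3 lower and 14 of 18 not past the threshold. Itgae, the integrin chain CD103, fell by 1.56 ± 0.16 (limma adjusted p = 0.00309), and Ctla4, an inhibitory receptor, by 0.67 ± 0.09 (adjusted p = 0.00773). Cd81, a tetraspanin, differed by -0.55 ± 0.07 (adjusted p = 0.00841). Removing anti-CD27 replicate 1 or 2 ended that call (adjusted p up to 0.0529). Il2ra, the high-affinity interleukin-2 receptor chain, rose by 2.51 ± 0.11 (adjusted p = 5.92e-05) from 3.05, a level below the background controls of anti-CD27. Its difference was 2.31 to 2.62 under the 18 alternatives. The list's median was -0.15.

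**Figure D3:**
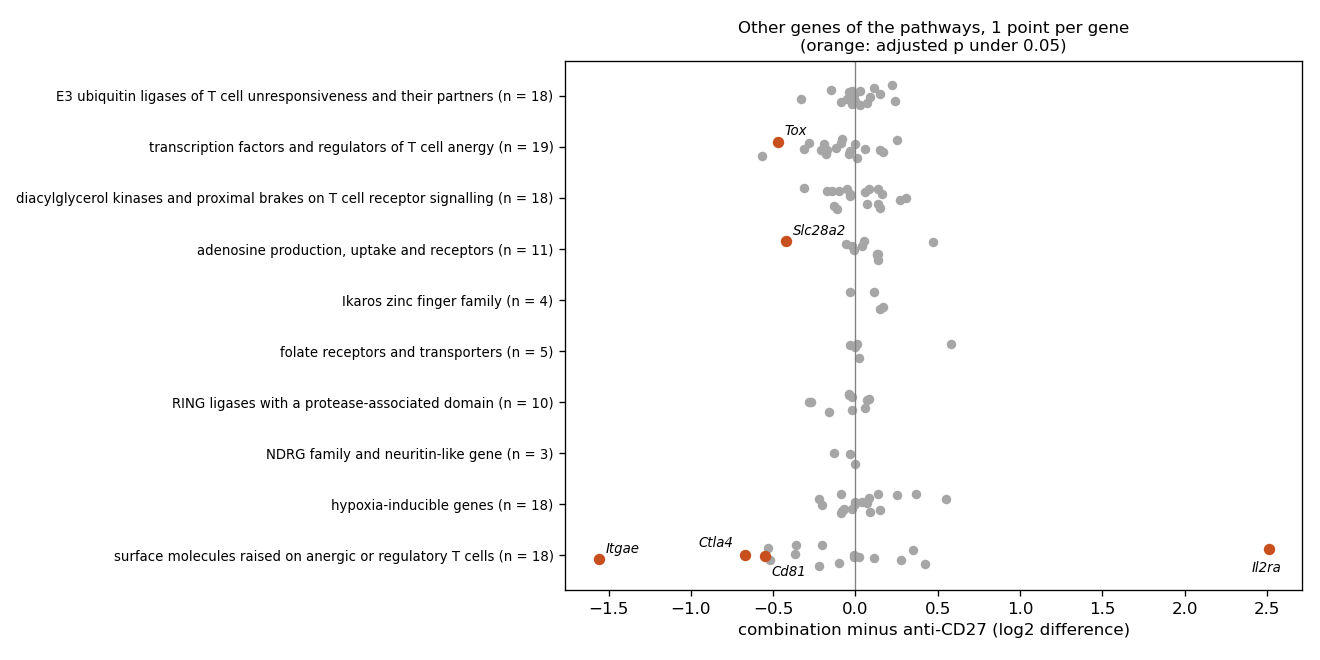
Log2 difference between the combination and anti-CD27 for the other measured genes of 10 pathway lists, 1 point per gene, with genes past an adjusted p of 0.05 in orange. Nearly all points lie close to 0, and the 6 called genes are Tox, Slc28a2, Itgae, Ctla4, Cd81 and Il2ra.

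Against anti-PD-1/L1, 59 of the 122 genes rose in the combination, 34 fell and 29 did not pass (76.2% passed, against 72.3% of all genes), and 59 rose, 30 fell and 33 did not pass in anti-CD27 (73% passed, against 70.8%). Of all genes, 19% were called higher and 53.3% lower in the combination, and 17.1% and 53.7% in anti-CD27. The lists were chosen with earlier results known, so their counts are a description. With centred arrays the split of the 122 genes was 88 higher and 8 lower, and 89 and 9, and with the positive control covariate 6 and 5, and 12 and 4. Ubiquitin ligases and partners had a median difference of 1.14 in the combination and 1.15 in anti-CD27, with 15 of 18 higher and 3 lower each time. Cbl, a ligase of receptor signalling, was 24.8-fold and 23.7-fold higher (limma adjusted p = 1.41e-05 and 1.76e-05). Its anti-PD-1/L1 level was 4.67 ± 0.94 (SD), near the background controls of that group at 4.06, so the size of these folds is uncertain. The other Ikaros factors gave 3 higher of 4 in both comparisons, with Ikzf1 at 2.29 ± 0.05 in the combination and 2.12 ± 0.05 in anti-CD27 (adjusted p = 2.48e-08 and 3.53e-08), beside the rise of Ikzf2. Anergy regulators had 11 of 19 higher in both, with 5 and 4 lower, and Bhlhe40 rose by 2.98 ± 0.17 and 3.05 ± 0.17 (adjusted p = 1.79e-06 and 1.63e-06). Proximal brakes had 13 of 18 higher in both, with 3 and 1 lower, and Dgka rose by 1.95 ± 0.14 and 2.26 ± 0.14 (adjusted p = 7.14e-06 and 3.24e-06). Once positive controls entered as a covariate, Dgka was at 0.14 and 0.63 (adjusted p = 0.768 and 0.111), and the combination calls of Cbl and Bhlhe40 were lost (0.0589 and 0.0573) with differences of 7.02 and 3.44. The covariate took the median of the brakes to -0.02 and -0.09 and left those of the ligases at 0.82 and 0.88, with 2 and 7 higher.

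Among the lists nearest to Izumo1r and Rnf128, called genes were nearly all lower against anti-PD-1/L1 as deposited, where 53.3% and 53.7% of all genes were called lower, but not with centred arrays. Of 5 folate genes, 2 fell in the combination and 3 in anti-CD27 and none rose, with the transporter Slc46a1 at -0.82 ± 0.08 and -0.83 ± 0.08 (limma adjusted p = 4.35e-05 and 4.6e-05), or -0.59 and -0.63 with the covariate (0.407 and 0.321). Of 10 RING ligases of the Rnf128 type, 6 fell and none rose in the combination, and 7 fell and 1 rose in anti-CD27. With centred arrays these ligases gave 4 higher and 1 lower, and 4 and 2, and the folate genes 2 and 1, and 2 and 2. Adenosine genes gave 3 higher and 3 lower of 11 in the combination and 3 and 2 in anti-CD27, with Dpp4, which binds adenosine deaminase, up by 1.55 ± 0.14 and 1.42 ± 0.14 (adjusted p = 1.94e-05 and 3.48e-05) but at -0.20 and -0.16 with the covariate. With centred arrays the adenosine genes gave 8 higher and 1 lower in both. Hypoxia-inducible genes gave 5 higher and 8 lower of 18 in both (11 and 2, and 10 and 2, with centred arrays), and NDRG genes 1 higher and 1 lower of 3. Surface molecules gave 9 higher and 4 lower of 18 in the combination and 8 and 2 in anti-CD27. For these the split was 13 and 1, and 14 and 1, with centred arrays, and 1 and 1, and 0 and 0, with the covariate.

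Markers of other cells were followed because anergy markers are also high in regulatory T cells. Of 8 markers of regulatory and other CD4 T cells 7 were measured, and Foxp3 was not named alone by a probe set. Only Zbtb7b and Tnfrsf4 were above the background controls in any group, while Cd4, Lrrc32, Gpr83, Cd40lg and Il10 were below them. The summed linear level of the list was 114 to 123.2 in the combination, 134.1 to 146.4 in anti-CD27 and 137.8 to 149.7 in anti-PD-1/L1. The sum was lowest in the combination, as was Izumo1r. None of the 7 markers passed between the combination and anti-CD27, with Zbtb7b at 5.60 and 5.78 and Tnfrsf4 at 5.49 and 5.85. The part of other cells in the Izumo1r difference was not tested. Of 51 markers on 7 lists of cells other than CD8 T cells, 1 rose (Itgam) and 1 fell (Pecam1) between the combination and anti-CD27. Against anti-PD-1/L1, 4 were higher and 36 lower in the combination, and 2 higher and 38 lower in anti-CD27, where 53.3% and 53.7% of all genes were called lower. The part of other cells in the differences of Izumo1r, Ikzf2 and Itch from anti-PD-1/L1 was not tested.

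The genes whose levels followed each member most closely over the 9 arrays were found by Pearson correlation among 7067 or 7068 genes, as a description. For Nrn1 they were St6gal1 (r = 0.99), Ctla4 (0.97) and Rgs2 (0.964), with r of 0.993, 0.981 and 0.998 over the 6 anti-CD27 and combination arrays. For Izumo1r they were BC106179 (r = 0.959), Ppic (0.952) and H2-Ob (0.936), with 0.986, 0.939 and 0.968 over 6 arrays. Nt5e was nearest to Neurl3 (r = 0.902), Rn4.5s (0.878) and Selenop (0.824). Ikzf2 was nearest to Kif1b (0.998), Pml (0.997) and Tnip1 (0.997), and Itch to Arel1, Papola and Cab39 (0.998 each). Rnf128 was nearest to Gpc5 (0.994), Lrrc74a (0.991) and Egr4 (0.99), and Ndrg1 to Lrrc38 (0.994), Aadacl4fm4 (0.987) and Sft2d3 (0.982). For Ndrg1 the values over 6 arrays were 0.502, -0.136 and 0.257. The r over 9 arrays contain the group structure and the setting apart of anti-PD-1/L1. Those over 6 arrays contain the gap between the combination and anti-CD27, which was known when Nrn1 and Izumo1r were chosen.

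**Figure D4:**
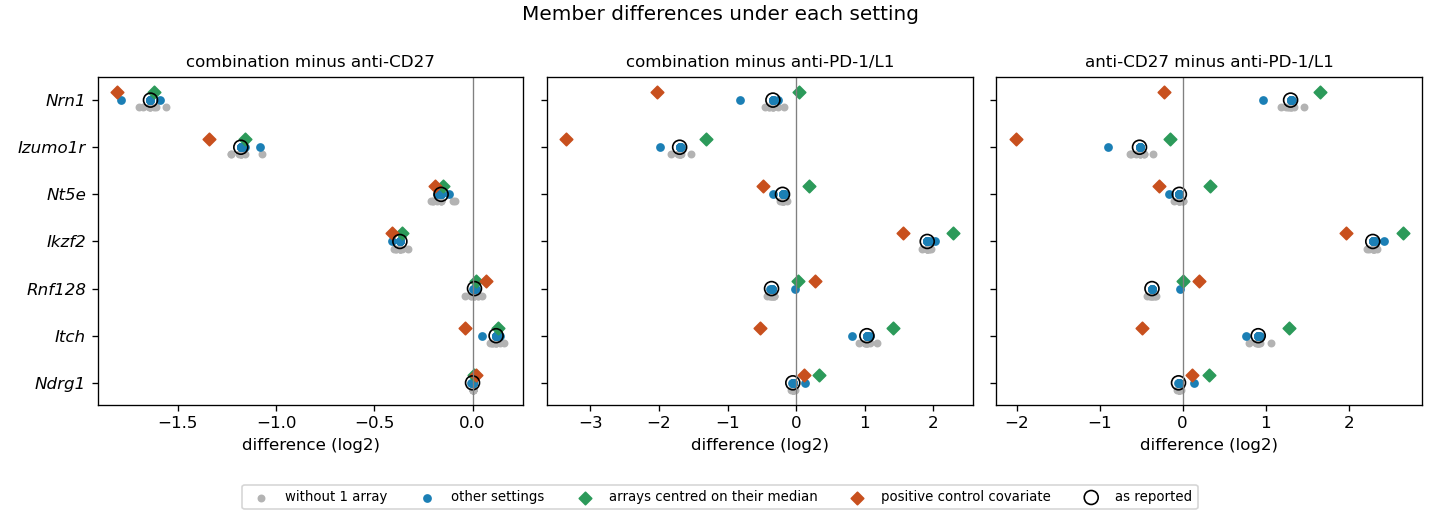
Log2 difference of each of the 7 genes in the 3 comparisons as reported (open circles) and under each alternative setting (filled marks). Between the combination and anti-CD27 the marks of Nrn1, Izumo1r and Ikzf2 stay left of 0, whereas against anti-PD-1/L1 the positive control covariate and the centred arrays move several genes across 0.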

How the data were processed

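The authors deposited 1 value per probe set and array. The submitters' processing notes name RMA and oligo 1.38.0, and the deposited values range as log2 output of RMA does. RMA corrects background, normalizes probes to a common distribution and summarises them. Which genome build the array design used is not stated in the labels. Of 65956 transcript probe sets, 31258 named 1 gene after symbols were updated through a RefSeq table (GRCm38.p6), and for genes with several the one with the highest mean was kept, leaving 30702 genes with no filter on low values. Tests across genes used limma 3.58.1 (R 4.3.3), with 1 mean per group over all 9 arrays, 6 residual degrees of freedom, two-sided moderated tests and Benjamini-Hochberg adjustment over all genes. Genes were called at an adjusted p under 0.05. For arrays, the 3 mice per group limit the precision.

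The 7 genes and all lists (134 pathway genes on 10 lists, 70 markers on 8 lists) were chosen with earlier results of these data known. From each list the text names up to 4 called genes (2 against anti-PD-1/L1) whose groups did not overlap, by size of difference, or the largest difference where none was called, and the 3 genes most correlated with each member among those with an SD of at least 0.3. The test was tried on simulated data for the contrast of combination and anti-CD27. Among 30702 genes it recovered 74% of 50 altered 1.5-fold and 84% of 50 altered 2-fold, with 4 false calls of 183. The simulated arrays had independent normal noise around 1 mean per gene. They lacked the array shifts and repeated values of the real arrays, so these rates may not hold for the real contrast. Alternatives were quantile normalization, centred arrays, leaving out the lowest 50% of genes, the mean over probe sets, 6 arrays alone, the replicate block, the positive control covariate, array weights, trended robust variances and leaving out each array.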

Additional observations from a re-analysis of the deposited data

How the results depend on the processing

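Each gene's difference in each comparison was recomputed under 18 alternatives (17 for Rnf128, which the filter on low genes removed). Of 375 such values, 324 kept their direction and side of the threshold, 32 lost the call, none gained one with its sign kept and 19 turned sign, 8 of which lost a call as well. Some sign turns against anti-PD-1/L1 gained a call. These were Ndrg1 with centred arrays in both comparisons and after quantile normalization in anti-CD27, and Nt5e with centred arrays in anti-CD27. Nrn1, Izumo1r, Nt5e and Ikzf2 kept their direction between the combination and anti-CD27 under all of them.

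Between the combination and anti-CD27, the number of members called was 1 of 5, and 0 with centred arrays and 0 with the replicate block. It ranged from 0 to 1 when single arrays were left out. The block changed no other call of a member (same-numbered samples did not deviate together, with a correlation over 0.1 in 1 of 9 pairs, so the numbers do not pair them), and the count over all genes went from 554 to 377 with it, to 1653 with 6 arrays alone, to 2517 with array weights and to 793 without the lowest genes. Leaving out single arrays gave 174 to 1226. Sign turned for Itch with the positive control covariate (-0.04) and for Rnf128, which ranged from -0.04 to 0.05 when single arrays were left out (-0.04 for anti-CD27 replicate 1, -0.01 for combination replicates 2 and 3). Positive controls also differed between the combination and anti-CD27, so their covariate overlaps with treatment in this comparison too.

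Against anti-PD-1/L1, the positive control covariate left 3 of 7 members called for the combination and 2 of 7 for anti-CD27, and 1921 and 2422 genes of 22207 and 21737. Members called ranged from 4 to 5 and stayed at 5 when single arrays were left out. With that covariate the values of Itch were -0.53 and -0.49, of Rnf128 0.27 and 0.20, and of Ndrg1 0.12 and 0.11, and Nrn1 was at -0.23 in anti-CD27. With centred arrays the combination gave 0.04 for Nrn1, 0.18 for Nt5e, 0.02 for Rnf128 and 0.33 for Ndrg1, and anti-CD27 gave 0.33 for Nt5e and 0.32 for Ndrg1. After quantile normalization Ndrg1 was at 0.13 and 0.14. Positive controls set anti-PD-1/L1 apart, so their covariate cannot be told apart from treatment in these comparisons, and the cause was not tested. Rnf128 was below the background controls in all groups, and Ikzf2 was near them in anti-PD-1/L1.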
